A study of Mus musculus with 24 samples.

Results

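Cytosolic ribosomal protein genes encode the protein parts of the ribosome that translates nuclear messages in the cytoplasm. They were taken as the probe sets whose single annotated symbol starts with Rpl or Rps and a digit, or is Rplp0, Rplp1, Rplp2 or Rpsa. Symbols of S6 kinases and of pseudogenes were left out, and the paralogue Rpl39l was kept. The rule gave 49 of the 12488 probe sets on the array, standing for 35 genes. Of these, 36 probe sets of 27 genes were bright enough to be tested, meaning that 5 or more arrays gave them a value past the array's 40th percentile.

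The study hybridised 24 Affymetrix Murine Genome U74Av2 arrays with RNA from mouse fat cells in primary culture, and its design text sets brown against white cells before and after maturation. The groups were brown fat cells at day 4 (n = 5 arrays), brown at day 7 (n = 5), white at day 4 (n = 8) and white at day 7 (n = 6). The labels call day 4 non differentiated and day 7 differentiated, name no other treatment, and give no strain, age or genotype, so all groups share untreated culture as far as they say. The arrays are named here by group and the number in their label. Whether the arrays of one group stand for different animals or cultures is not in the labels, so p-values here cover array-to-array spread, which may be technical. All brown array numbers precede all white ones, so handling and cell type cannot be told apart.

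Each ribosome holds a small and a large subunit, and nearly every ribosomal protein is present once per ribosome. Their messages typically begin with a C followed by a run of pyrimidines, the terminal oligopyrimidine (TOP) tract, through which mTOR signalling controls how well they are translated. Ribosome production is high in growing and dividing cells, and preadipocytes leave the cell cycle as they fill with lipid.

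The start sites of a few members show this tract and its absence. Promoter windows from RefSeq (GRCm38.p6) were matched to 28 of the 35 genes by Entrez gene identifier. Each line below gives 30 bases, 10 before the annotated start and 20 from it on, with a C-led pyrimidine run of at least 5 bases in capitals. Rps10, Rps18 and Rps27 carry the run at the annotated start, Rpl13a a few bases after it and Rpl39l a few bases before it, while Rpsa and Rps3 have none within 10 bases of it. Rpl13a, Rpsa, Rps3, Rps10 and Rps18 are shown because their signal fell in both cell types, Rps27 because it passed no test, and Rpl39l because it set brown apart from white cells.
Rps10, chr17:27635225-27635254, minus strand: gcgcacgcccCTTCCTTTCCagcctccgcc
Rps18, chr17:33955646-33955675, minus strand: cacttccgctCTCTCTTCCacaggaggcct
Rps27, chr3:90213629-90213658, minus strand: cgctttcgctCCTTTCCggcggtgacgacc
Rpl13a, chr7:45128726-45128755, minus strand: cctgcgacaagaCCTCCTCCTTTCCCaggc
Rpl39l, chr16:10170218-10170247, plus strand: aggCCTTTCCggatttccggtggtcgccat
Rpsa, chr9:120127756-120127785, plus strand: ttatttaaggacgtcatttccggccgcccg
Rps3, chr7:99483690-99483719, minus strand: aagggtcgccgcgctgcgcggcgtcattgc

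A run beginning exactly at an annotated start was found in 5 of the 28 member genes (17.9%), against 3.0% of all 27025 genes with a window. Within 10 bases of a start it was found in 15 of 28 (53.6%), against 26.8% of all genes. Away from the start itself, a run counted only where the base before its first C was neither C nor T. C-led runs inside a longer pyrimidine stretch, as at the start of Rpl7a, were thus left out of that count, for members and all genes. Over the 300-base windows and both strands, CCGGAA, the core bound by ETS factors, stood in 17 of 28 member genes (60.7%) and in 16.7% of all genes. ATGGCGG, a YY1-type motif, stood in 6 of 28 (21.4%) and in 4.7% of all genes. TATAAA stood in 4 of 28 (14.3%), against 15.7% of all genes, and the E-box CACGTG in 3 of 28 (10.7%), against 8.1%. These are letter matches, and annotated starts can be off by some bases.

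Most of the tested markers chosen for brown and white cells matched the labels. On each day all 4 tested of 8 brown markers were higher in brown cells, and 5 of 6 white markers were lower. Of all probe sets 10.8% and 12.8% were higher and 12.2% and 12.3% lower at day 4 and day 7. Lep, chosen as a white marker, did not separate the cells. Its medians at day 4 and day 7 were 219 and 320 in brown and 247 and 264 in white cells. Zic1, a brown lineage gene, had a signal of 58.4 to 119 on brown arrays and was below the floor of 8.21 on all 14 white arrays, while Tcf21, a white lineage gene, was 239 to 471 on white arrays and at most 23.7 on brown ones. Adipoq was present in every group, and Ucp1 stayed low even in brown cells, with medians of 19.4 at day 4 and 53.1 at day 7. Depth is not defined for arrays, whose number limits the precision, and median signal per array was 41.98 to 59.1. The 49 member probe sets supplied 3.99% to 5.63% of the summed signal of an array, the highest share being that of white day 4 array 51, which also had the lowest adipocyte marker mean of its group (7.47). It had the highest macrophage marker mean of its group (7.23 on the log2 scale, against 5.06 to 6.07 on the other white day 4 arrays). The signal ratio of the 3′ to the 5′ Gapdh probe sets, a sign of RNA integrity, was 0.769 to 0.999 on brown arrays, 0.841 to 1.10 on white day 4 arrays and 1.09 to 1.54 on white day 7 arrays.

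The first comparison asked how these genes differ between day 7 and day 4 in brown cells. Of the 36 tested members 8 (22.2%) were lower at day 7 and 0 were higher, while 6.05% of all 8397 tested probe sets were lower and 6% higher (limma, Benjamini-Hochberg adjusted p under 0.05). At an unadjusted p under 0.05, 16 members were lower and 0 higher, beside 2128 of all 8397 probe sets in either direction (limma). The median member difference was -0.22 on the log2 scale and 29 of 36 lay below 0, beside a median of 0.01 over all probe sets. By subunit, 3 of 13 large subunit genes and 5 of 14 small subunit genes fell. In bulk cultures, fewer cells of a type and less RNA per cell cannot be told apart. Ribosomal protein probe sets may also bind near-identical gene copies and pseudogenes, so each value is uncertain to that extent.

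The largest fall in brown cells was that of Rpl13a, a large subunit protein also known as part of an inhibitor of translation in inflamed cells. At day 4 its signal was 1166, 1443, 1415, 1633 and 1412 on arrays 05, 06, 09, 10 and 19. At day 7 it was 624.9, 579, 780, 696 and 1126 on arrays 07, 08, 11, 12 and 22. All day 7 arrays lay below all day 4 arrays, and array 22 was the nearest to them. The fall was 0.93 ± 0.15 (SE) on the log2 scale, or 1.90-fold (limma adjusted p = 0.000309).

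Rpsa, the small subunit protein known also as a laminin receptor, read 3224, 3430.5, 3673, 3961 and 3610 in brown cells at day 4. At day 7 it read 2344, 2146, 2505, 2404 and 2540, with no overlap. It fell by 0.58 ± 0.16 on the log2 scale (limma adjusted p = 0.016). Rpl8, a large subunit protein near the peptidyl transferase centre, ran from 5969 to 8077 at day 4 and from 4812 to 5807 at day 7, again without overlap. It fell by 0.56 ± 0.14 (limma adjusted p = 0.0103). Rps3, which sits where the message enters the small subunit, ran from 7103 to 8823.5 and then from 5785 to 6269. Its fall of 0.41 ± 0.12 had a limma adjusted p of 0.0239, which became 0.0572 without brown day 4 array 09, 0.0641 without array 10, and 0.053 and 0.0514 without brown day 7 arrays 11 and 12.

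Of the remaining calls in brown cells, Rps19, the gene most often mutated in Diamond-Blackfan anaemia, fell by 0.72 ± 0.19 (limma adjusted p = 0.0143). Its groups overlapped: day 4 ran from 6050 to 7697, and day 7 from 2688 to 6392 with arrays 07 and 08 lowest. Without array 07 the adjusted p was 0.0603 and without array 08 it was 0.0523. Rps10, in the head of the small subunit, fell by 0.50 ± 0.13 (limma adjusted p = 0.0131), with 6693 to 9523 at day 4 and 5222 to 6749 at day 7. Rps18, also in the head, fell by 0.32 ± 0.10 (limma adjusted p = 0.0343), and this call ended when any of 7 of the 10 arrays was left out (all but 05, 06 and 22), with adjusted p up to 0.0916. The Rpl7 paralogue Rpl7l1 fell by 0.53 ± 0.17 (limma adjusted p = 0.0449), and its call likewise ended without any of 7 arrays (all but 06, 11 and 22), with adjusted p up to 0.145.

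Groups without overlap were seen for 6 of 36 members in brown cells, all lower at day 7, beside 5.31% of all probe sets. They were Rpl13a, Rpsa, Rpl8 and Rps3 together with Rpl6 and Rpl19, whose adjusted p values of 0.0688 and 0.0755 (limma) missed the threshold. Brown day 7 array 22 lay closest to the day 4 arrays for several members, and the count of lower members was 13 without it. The count was 5 without any 1 of brown arrays 07, 08, 09, 10 or 12.

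**Figure D1:**
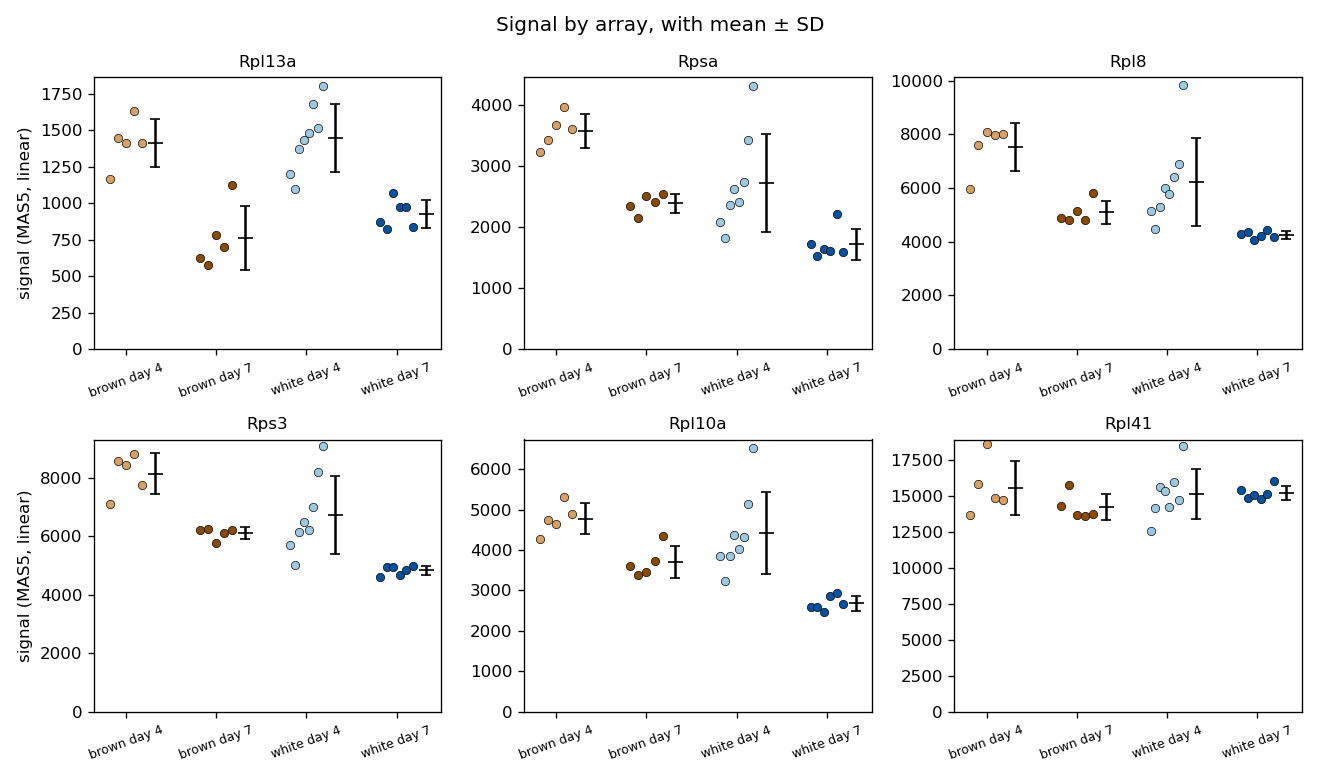
MAS5 signal (linear, axes from 0) of 6 members on each of the 24 arrays by group, with the group mean ± SD beside the points. Rpl13a, Rpsa, Rpl8 and Rps3 fell in both cell types and Rpl10a in white cells, while the Rpl41 groups overlap.

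In white cells 14 of 36 members (38.9%) were lower at day 7 and 0 were higher, beside 10.6% of all probe sets lower and 8.36% higher. At an unadjusted p under 0.05, 17 were lower and 0 higher, beside 2710 of all 8397 probe sets in either direction (limma). The median difference was -0.26 with 28 of 36 below 0, and all probe sets had a median of 0.01. Of the large subunit 7 of 13 genes fell, and of the small subunit 7 of 14. The largest fall was that of Rpl10a, a protein of the stalk that guides the leaving transfer RNA. Its signal had a lowest, median and highest value of 3241, 4168 and 6529 at day 4 and of 2459, 2624 and 2935 at day 7. No day 7 array reached the lowest day 4 array. The fall was 0.69 ± 0.11 on the log2 scale, or 1.62-fold (limma adjusted p = 0.000234). A second Rpl10a probe set, of the kind that may bind related sequences, differed by -0.24 with a 95% interval of -0.45 to -0.04 (limma adjusted p = 0.0794).

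Rpl13a read 1097, 1455 and 1801 (lowest, median, highest) in white cells at day 4 and 821, 922 and 1070 at day 7. Its groups did not overlap, and it fell by 0.64 ± 0.13 (limma adjusted p = 0.00151). Rpsa fell by 0.63 ± 0.14 (limma adjusted p = 0.00247), from 1823, 2522 and 4319 to 1529, 1621 and 2217. Those groups overlapped through white day 7 array 43, the highest of its group. Rps4l, an Rps4x-like gene, read 273, 396 and 506 at day 4 and 218, 244 and 305 at day 7, and fell by 0.63 ± 0.16 (limma adjusted p = 0.0061).

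Rpl8, Rpl6 and Rps3 fell in white cells by 0.51 ± 0.12, 0.49 ± 0.11 and 0.45 ± 0.10, each without overlap. Rplp0, the base of the stalk that binds translation factors, read 9199, 10229 and 13005 at day 4 and 8043.5, 8538 and 9104 at day 7. It fell by 0.31 ± 0.09 without overlap (limma adjusted p = 0.0152). In all, 6 members did not overlap in white cells, all lower at day 7, beside 2.56% of all probe sets. Rpl7a fell by 0.43 ± 0.11, Rps10 by 0.38 ± 0.11 and Rps7 by 0.30 ± 0.08.

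Among the weaker calls, Rpl19 fell by 0.34 ± 0.11, Rps4x by 0.27 ± 0.09 and Rps18 by 0.24 ± 0.09 (limma adjusted p = 0.0298, 0.0361 and 0.0458). The Rps18 call ended when any white array but day 4 arrays 33 and 34 was left out, with adjusted p up to 0.0858. The Rpl19 call ended without any of day 4 arrays 42, 45 and 51 or day 7 arrays 35, 39 and 40, with adjusted p up to 0.0637. The Rps4x call ended without any of day 4 arrays 45 and 51 or day 7 arrays 35, 36, 39 and 44, with adjusted p up to 0.0791.

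High white day 4 values came mostly from arrays 45 and 51, which gave 3421 and 4319 for Rpsa and 5149 and 6529 for Rpl10a. Without these 2 arrays 10 members were lower in white cells, and the calls for Rps10, Rpl19, Rps4x and Rps18 ended. Rpl10a then differed by -0.55 (limma adjusted p = 0.000319) and Rpl13a by -0.57 (limma adjusted p = 0.00832). With the log2 Gapdh 3′ to 5′ ratio of each array as a covariate, 0 members were called in white cells (limma, 3 at an unadjusted p under 0.05) and Rpl10a had a difference of -0.40 (limma adjusted p = 0.361). That covariate cut the calls over all probe sets in white cells from 1595 to 37, and most white day 7 arrays lay above every day 4 array in the ratio. In brown cells, where the ratios of the days overlapped, it left 8 members lower. The 3′ to 5′ ratio of the actin probe sets was 1.93 to 2.76 on white day 7 arrays and 1.33 to 1.89 on white day 4 arrays, without overlap. On brown arrays it was 1.33 to 1.62 at day 4 and 1.44 to 1.87 at day 7. Day and the actin ratio thus cannot be told apart in white cells. The part of RNA integrity in the white difference was not tested beyond the fit with the Gapdh ratio.

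The brown and white day comparisons use no common arrays. Of the 8 members lower in brown cells, 6 (75.0%) were among the 14 lower in white cells, which is 42.9% of those 14. The shared ones were Rpl13a, Rpsa, Rpl8, Rps10, Rps3 and Rps18. Among the 22 member probe sets with a mean signal above 1000, all but 1 had a negative difference in brown cells and 19 had one in white cells. Of all 479 probe sets as bright, 57.4% in brown and 59.5% in white cells had a negative difference. The medians were -0.32 and -0.30 for the bright members and -0.095 and -0.080 for all 479. In this bright range 31.8% of members were lower in brown cells and 59.1% in white cells, beside 14.0% and 25.3% of all 479 probe sets as bright. Across those 22 the brown and white differences had r = 0.80 (across probe sets, which are not independent, with the days and the array scale in common), and across all 36 it was 0.60.

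**Figure D2:**
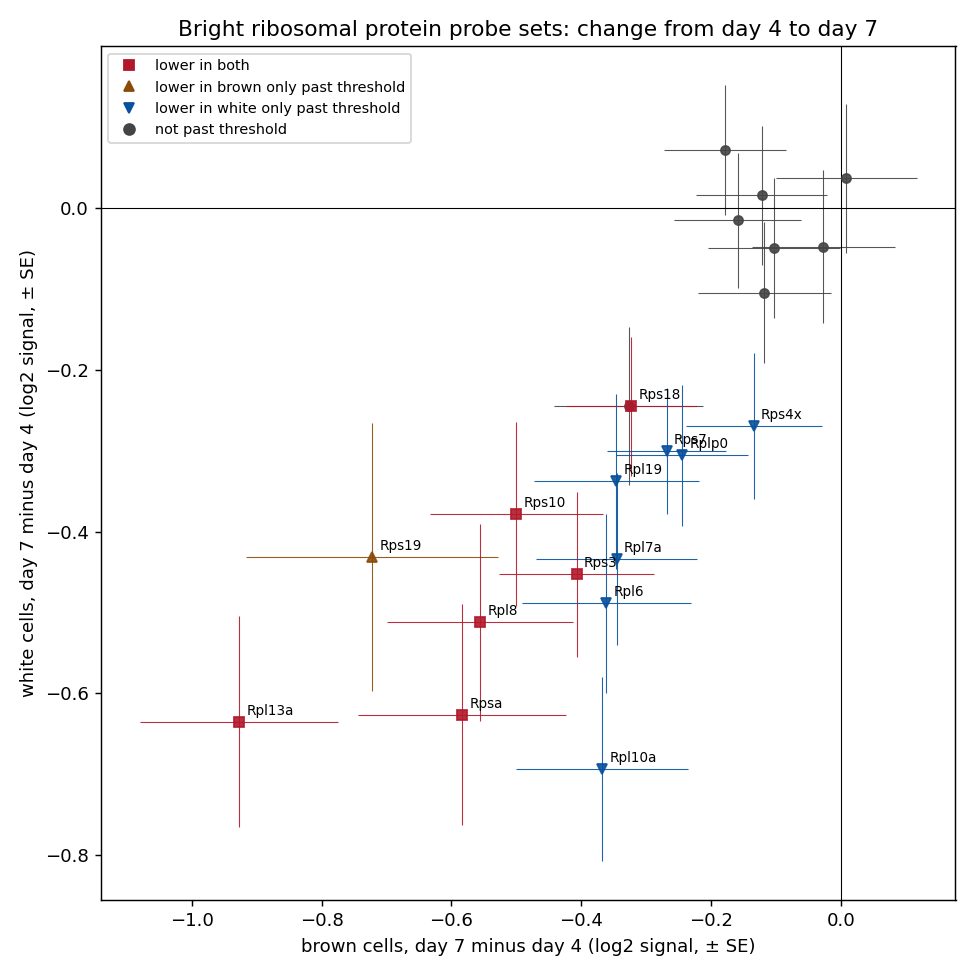
Day 7 minus day 4 difference (log2 signal ± SE) of the 22 bright member probe sets in brown cells (horizontal) and white cells (vertical). Rpl13a, Rpsa and Rpl8 lie far to the lower left, and 7 probe sets past no threshold in either cell type, those of Rpl41, Rpl37a, Rps24, Rps28 (2 probe sets), Rpl7 and Rps3a1, lie near 0. The second Rpl10a probe set, also past no threshold, lies under the Rps18 point.

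The test of the difference between the brown and white changes called 0 members, also 0 at an unadjusted p under 0.05, beside 0.214% of all probe sets called (limma, 670 of 8397 at an unadjusted p under 0.05). For Rpl13a the brown change minus the white change was -0.29 with a 95% interval of -0.70 to 0.12. For Rpl10a it was 0.33 with an interval of -0.03 to 0.68. These intervals do not show the changes in the cell types to be alike.

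Some bright members had small differences with narrow intervals. Among those below, the probe sets of Rpl41 and Rpl7 are of kinds that may also bind related sequences. Rpl41, a very short peptide, read 13663, 15848, 18651, 14886 and 14753 in brown cells at day 4 and 13618 to 15765 at day 7, a difference of -0.12 (95% interval -0.33 to 0.08). In white cells the difference was 0.02 (-0.16 to 0.19). Rps3a1 differed by 0.01 (-0.21 to 0.23) in brown and 0.04 (-0.15 to 0.23) in white cells. Rpl7 differed by -0.03 (-0.25 to 0.20) and -0.05 (-0.24 to 0.15). For Rpl41, Rpl7 and Rps3a1 these intervals leave out a fall as large as that estimated for Rpl13a, Rpsa or Rpl8 in the same cells. Rpl37a, Rps24 and Rps28 were also called in no comparison, nor was Rps27, which read 246 to 322 on brown and 237 to 361 on white arrays.

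Brown and white cells were next compared on the same day. At day 4, 5 of 36 members (13.9%) were higher in brown cells and 0 were lower, beside 10.8% of all probe sets higher and 12.2% lower, and the median member difference was 0.14. At day 7, 8 members (22.2%) were higher and 0 lower, beside 12.8% and 12.3% of all probe sets, with a median of 0.05. Under quantile normalization the medians were 0.056 and 0.027, and less the median of all probe sets they were 0.015 at day 4 and -0.0084 at day 7, so the small shift of the members between cell types had no settled direction. At an unadjusted p under 0.05, 7 were higher and 2 lower at day 4, and 8 higher and 2 lower at day 7. The day 4 share at the adjusted threshold, 13.9%, was near the 10.8% of all probe sets. Among the probe sets above a mean signal of 1000, 9.09% of members and 21.5% of all were higher in brown cells at day 4. At day 7 these shares were 22.7% and 24.8%. All 5 members higher at day 4 were among the 8 at day 7, namely Rpl39l, Rps4l, Rpl22, Rpsa and Rps3. The comparisons at day 4 and day 7 share no arrays.

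Rpl39l, a paralogue of Rpl39 best known from testis, differed most. In brown cells it read 122, 143, 154, 176 and 141 at day 4 and 106, 98.5, 135, 129 and 180.5 at day 7. White arrays had a lowest, median and highest value of 10.3, 17.4 and 25.2 at day 4 and of 2.26, 10.8 and 30.3 at day 7. Brown and white arrays did not overlap on either day. It passed the filter through the brown arrays alone: no white array reached its own 40th percentile, which was 23.8 to 35.8 at day 4 and 26.6 to 32.9 at day 7. With that percentile standing in for the white signal, brown cells were at least 5.01-fold higher at day 4 and at least 4.11-fold higher at day 7. The fitted differences of 3.07 ± 0.30 and 3.21 ± 0.32 on the log2 scale (limma adjusted p = 1.92e-08 and 3.82e-08) use white signals in this dim range, with 3 of 6 white day 7 arrays at the floor, so their size is not settled. In each leave-one-array-out fit and with the Gapdh covariate the call stayed past the threshold on both days. Because the filter kept Rpl39l through the group where it is high, these p-values and their stability are no separate support for the difference. From day 4 to day 7 Rpl39l passed the threshold in neither cell type. The probe set of Rpl39 itself was too dim to be tested.

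Rps4l read 441, 731, 562, 794 and 737 in brown cells at day 4, above the white median of 396 on each array but overlapping the white range. At day 7 it read 408, 384, 525, 446 and 664, with no brown array as low as the highest white value of 305. The difference was 0.74 ± 0.16 at day 4 and 0.95 ± 0.17 at day 7 (limma adjusted p = 0.0017 and 0.00024). Rpl22, a large subunit protein that also binds other RNAs, read 202, 223, 140.0, 198 and 120.2 in brown cells at day 4 and 172 to 220 at day 7. White arrays ran from 103 to 174 at day 4 and from 110.5 to 171 at day 7. The difference was 0.46 ± 0.16 and 0.60 ± 0.17 (limma adjusted p = 0.0349 and 0.00909).

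**Figure D3:**
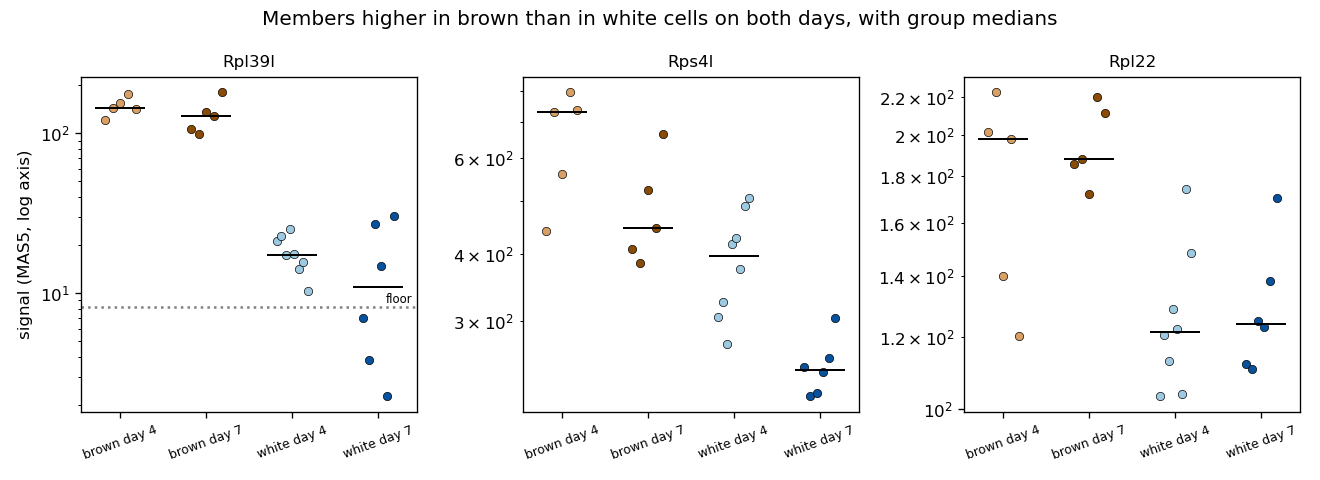
MAS5 signal on log axes of Rpl39l, Rps4l and Rpl22 on each array by group, before the floor was set, with group medians as lines. Rpl39l lies between 98.5 and 180.5 on brown arrays and at or below 30.3 on white arrays, where the dotted line marks the floor of 8.21.

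Rpsa was higher in brown cells by 0.44 ± 0.14 at day 4 and 0.48 ± 0.15 at day 7, and Rps3 by 0.29 ± 0.11 and 0.34 ± 0.11. At day 7 Rpl10a (0.46 ± 0.13), Rpl6 (0.44 ± 0.12) and Rps4x (0.29 ± 0.10) were also higher in brown cells. Groups without overlap numbered 1 of 36 at day 4 (Rpl39l, beside 3.32% of all probe sets) and 9 at day 7, beside 8.71%. The 9 held Rpl8 and Rpl19, which missed the threshold, and lacked Rpsa. These smaller calls moved with single arrays: at day 4 the count was 2 without brown array 10 or white arrays 33, 34 or 37, and 3 without brown arrays 06 or 09 or white array 42. It was 8 without white array 51 and 12 without white arrays 45 and 51, the latter beside 12.3% of all probe sets higher. Leaving out brown array 10 gave adjusted p values of 0.072 for Rpsa, 0.117 for Rps3 and 0.093 for Rpl22. The Rpsa call also ended without brown array 09 or white arrays 33, 34 or 37, and the Rpl22 call without brown arrays 05 or 06 or white arrays 33, 34, 37 or 42. The Rps3 call at day 4 ended without any of 10 of 13 arrays (all but brown 05 and white 45 and 51), with adjusted p up to 0.117.

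At day 7 the Rps3 call ended without brown arrays 07, 08, 12 or 22 or white arrays 35 or 40, with adjusted p up to 0.0598. The Rps4x call ended without any of 9 of 11 arrays (all but white 40 and 43), with adjusted p up to 0.0633. The other 6 calls at day 7 stayed past the threshold whichever array was left out. With the Gapdh ratio as covariate, 2 members were higher at day 4, Rpl39l and Rps4l, beside 10.2% of all probe sets. At day 7 it was 1, Rpl39l, beside 1.73% of all. That fit cut the day 7 calls over all probe sets from 2112 to 274. Gapdh ratios were 0.854 to 0.942 on brown and 1.09 to 1.54 on white day 7 arrays, without overlap. Cell type and this ratio thus cannot be told apart at day 7.

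Genes with several tested probe sets did not always give the same call. In white cells the Rps4x probe set that fell stood beside 2 others with differences of -0.61 (95% interval -1.72 to 0.49) and -0.16 (-1.22 to 0.90). The second Rpl19 probe set differed by -0.03 (-0.97 to 0.90), and the second Rps4l probe set by -0.34 (-0.78 to 0.09). These 4 intervals include the sizes estimated from the called probe sets, while for Rpl10a in white cells the called -0.69 lies outside the interval of the second probe set. Between brown and white cells the second Rps4l probe set differed by -0.24 (-0.69 to 0.22) at day 4 and by 0.26 (-0.22 to 0.75) at day 7, and both intervals leave out the called sizes. The called Rps4l probe set is of a kind that may also bind related sequences. The second Rpl22 probe set differed by 0.22 (-0.40 to 0.83) at day 4, an interval that holds the called 0.46, and by -0.21 (-0.87 to 0.44) at day 7, which leaves out the called 0.60. At day 7 the second Rpl10a probe set differed by -0.11 (-0.34 to 0.11), which leaves out the called 0.46. The 2 other Rps4x probe sets had wide intervals at day 7 that hold the called 0.29. The higher signal of Rps4l, Rpl22 and Rpl10a in brown cells thus rests on 1 of 2 probe sets each, and the second probe set had the opposite sign in 3 of the 5 calls. These second probe sets were dim for Rps4l and Rpl22, with group medians of 23.7 to 32.5 and 41.4 to 61.3. The called ones had group medians of 244 to 731 and 121 to 198. For Rpl10a the second probe set was bright, at 1714 to 2268. The other Rps4x and Rpl19 probe sets were dim too, with group medians of at most 41.2. No Rps24 or Rps28 probe set was called in any comparison.

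The 13 member probe sets that did not pass the filter belong to Rpl32, Rpl35a, Rpl38 (2 probe sets), Rpl39, Rpl7, Rps14, Rps15, Rps20, Rps27l, Rps29 and Rps4x (2 probe sets). Rpl7, Rps29 and Rps4x have other probe sets that were tested. The 13 had signals of at most 35.03 on any array, and for them nothing can be said about change at this signal. A further 39 probe sets carry several symbols of which at least 1 is a ribosomal protein, and were not members by the rule. Of the 36 of them that were tested, 10 were lower at day 7 in brown and 18 in white cells, with 0 higher in either. Of all tested probe sets, 6.05% were lower and 6% higher in brown cells, and 10.6% and 8.36% in white cells.

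Across the 24 arrays the bright members moved together within groups. After subtracting group means, the 231 pairs of the 22 bright probe sets had a median r of 0.54, and 199 pairs were above 0. Over the 630 pairs of all 36 tested members the median was 0.18, with 442 above 0. Between the bright members and the 457 other probe sets as bright it was 0.19, and among those 457 it was 0.066. All arrays share 1 scaling per array, so such correlations can also hold array-wide shifts of bright probe sets. Rpl13a (0.78), Rpl8 (0.76), Rps18 (0.73) and Rps10 (0.73) followed the mean of the other members most closely among those named. Rpl7 (-0.10) and Rps3a1 (-0.27) did not, and both are among the members that passed no threshold. The median SD within groups was 0.16 for bright members and 0.36 for all probe sets on the log2 scale.

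The mean log2 signal of the 36 tested members was 9.77 to 10.1 in brown cells at day 4 and 9.64 to 9.98 at day 7. In white cells it was 9.66 to 10.1 and 9.52 to 9.70. Array numbers were cut here, by their order, into 7 sets, mostly of day 4 numbers with the day 7 numbers that follow. The labels give no such sets. Some sets follow each other without a gap, and some hold numbers that do not adjoin. Of the 7 sets, 6 hold both days, and the last holds only white day 4 arrays 45 and 51. Within the 3 brown sets, which hold both days, the member mean differed by -0.27, -0.28 and -0.07 between the days, and within the 3 white sets that do by -0.07, -0.22 and -0.23. Rpl13a was lower at day 7 in each of the 6 sets, by -1.11, -1.04 and -0.33 in brown and -0.44, -0.46 and -0.80 in white cells. With all 7 sets as a block, 16 members (44.4%) were lower in brown cells and 11 (30.6%) in white cells, beside 9.32% and 9.75% of all probe sets. Arrays 45 and 51 add nothing to the white difference in that fit.

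**Figure D4:**
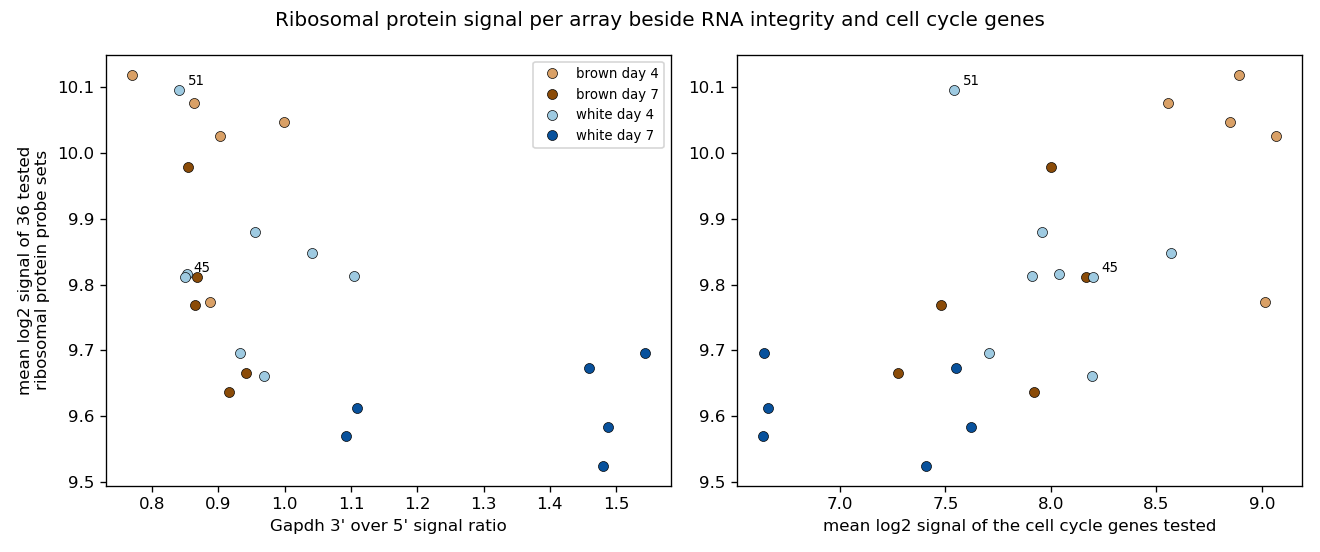
Mean log2 signal of the 36 tested members on each array against the Gapdh 3′ to 5′ signal ratio (left) and the mean log2 signal of the tested cell cycle genes (right), with white day 4 arrays 45 and 51 marked. White day 7 arrays have the highest Gapdh ratios, 1.09 to 1.54, and among the lowest member means, 9.52 to 9.70.

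Other genes of ribosome production and translation were read from lists. For all list counts below, the shares over all tested probe sets were these. Between the days 6.05% fell and 6% rose in brown cells, and 10.6% fell and 8.36% rose in white cells. In brown against white cells 10.8% were higher and 12.2% lower at day 4, and 12.8% and 12.3% at day 7. Of 52 tested genes for ribosome assembly and RNA polymerase I, 16 fell and 0 rose in brown cells, and 14 fell and 3 rose in white cells, with medians of -0.21 and -0.19. Nhp2, which guides pseudouridine formation in ribosomal RNA, fell by 1.13 ± 0.23 in brown and 0.84 ± 0.19 in white cells. Bop1, needed to mature the large subunit, fell by 0.99 ± 0.14 and 0.48 ± 0.12, and Noc4l by 0.91 ± 0.16 in brown cells. Gnl3, nucleostemin, rose by 0.71 ± 0.19 in white cells. Between cell types, 25 of these 52 genes were higher in brown cells at day 4 and 14 at day 7, with Nhp2 at 1.23 ± 0.20 and 0.94 ± 0.22.

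Of 31 initiation factors, 6 fell in brown cells, and 8 fell and 2 rose in white cells, with medians of 0.01 in both. Eif6, which keeps free large subunits from joining, fell by 0.73 ± 0.18 and 0.68 ± 0.15, and the cap-binding Eif3d by 0.68 ± 0.14 and 0.56 ± 0.12. Eif5 rose by 0.81 ± 0.16 in white cells. Of 10 elongation and termination factors, Eef1d fell in both (0.85 ± 0.13 and 0.58 ± 0.11) and Eef2 in white cells (0.37 ± 0.09). Of 10 other genes with a TOP message, 0 changed in brown cells (limma, 2 at an unadjusted p under 0.05), while Pabpc1 fell by 0.33 ± 0.11 and Hnrnpa1 rose by 0.81 ± 0.28 in white cells.

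Mitochondrial ribosomal proteins, which build the separate ribosome inside mitochondria, were also read. Of 59 tested, 36 were higher in brown cells at day 4 and 35 at day 7, with 0 lower and a median of 0.51 on both days. Mrpl18 was higher by 0.99 ± 0.13 at day 4, and Mrpl15 by 1.34 ± 0.15 at day 7. Between the days 3 of 59 fell in brown and 8 in white cells, near the 6.05% and 10.6% of all probe sets that fell. The counts of cytosolic members higher in brown cells on those days were 5 and 8 of 36, and the difference between the families was not tested.

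Genes that control ribosome production mostly passed no threshold between the days. Of 11 Myc and mTOR genes 0 changed in brown cells (limma, 1 at an unadjusted p under 0.05), and Akt1s1 and Tsc2 fell in white cells by 0.47 ± 0.12 and 0.33 ± 0.10. Myc itself was higher in brown than in white cells by 0.77 ± 0.23 at day 4 and 1.09 ± 0.24 at day 7, and its antagonist Mxd4 was different by -1.53 ± 0.34 and -1.47 ± 0.36. The S6 kinase Rps6kb2 fell by 1.204 ± 0.347 in white cells and was -1.22 ± 0.37 in brown against white cells at day 4.

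Cell cycle genes and adipocyte genes moved beside the members. Of 17 cell cycle genes 13 fell in brown cells and 14 in white cells, with medians of -1.01 and -0.89, among them Tk1 (1.89 ± 0.24 and 1.47 ± 0.20). Their mean log2 signal per array was 8.56 to 9.07 at day 4 and 7.27 to 8.17 at day 7 in brown cells, and 7.54 to 8.57 and 6.63 to 7.62 in white cells. Of 8 adipocyte markers 3 rose in brown and 6 in white cells, including Adipoq by 1.19 ± 0.32 and 1.59 ± 0.27. Of 10 macrophage markers 1 rose in brown and 3 in white cells, with mean signals of 5.21 to 5.41 and 5.37 to 6.20 in brown and of 5.06 to 7.23 and 5.76 to 6.84 in white cells at day 4 and day 7. Of 9 striated muscle markers 3 fell in brown cells, from 6.81 to 7.26 to 6.41 to 6.51 in mean signal, and 3 rose in white cells, from 5.03 to 5.69 to 5.42 to 6.18. Of 7 endothelial markers 1 rose and 1 fell in brown cells, with a median of 0.71, and 1 rose in white cells, with a median of -0.01. Their mean signal was 5.99 to 6.52 and 6.39 to 6.95 in brown cells and 5.26 to 6.14 and 5.18 to 6.16 in white cells.

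Markers also differed where brown and white cells were compared. Of the 17 cell cycle genes 13 were higher in brown cells at day 4 and 9 at day 7, with medians of 0.91 and 0.77. Of the 9 striated muscle markers 7 were higher at day 4, among them the fast myosin light chain Myl1 by 3.69 ± 0.25, and 3 were higher and 1 lower at day 7. Of the 7 endothelial markers 3 were higher on each day, namely Emcn, Cdh5 and Tie1, and 1, Flt1, was lower at day 7. Of the 10 macrophage markers 3 were lower in brown cells at day 4 and 6 at day 7, among them Csf1r, with differences of -1.24 ± 0.21 and -0.96 ± 0.23. Of the 8 adipocyte markers 2 were higher and 2 lower at day 4, and 1 higher and 2 lower at day 7. The part of these cell types in the member differences was not tested.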

How the data were processed

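The authors deposited signal intensities on a linear scale, and the submitters' processing notes name MAS5, with no version; detection calls were not used here. RNA was extracted with Trizol and labelled in a single round from 5 ug, per the labels' protocols. Each array was scaled to a 2% trimmed mean of 150, a floor of 8.21, the 20th percentile over all arrays, replaced lower values, and values were put on a log2 scale. After 66 control probe sets and dim ones were left out, 8397 were fitted as 4 group means with limma 3.58.1 in R 4.3.3 (intensity trend, 20 residual degrees of freedom, two-sided tests, Benjamini-Hochberg over all 8397, threshold 0.05). The fit was tested on simulated data. Values after ± are standard errors unless SD is written.

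Symbols came from platform annotation, which can be old: 10855 probe sets had 1 symbol, 396 several and 1237 none. Genes in counts by gene take their brightest tested probe set. The members and lists were chosen with earlier results of these data known. Named were up to 6 called members per direction and comparison, a fixed panel, all untested members, genes whose probe sets differ in call, and up to 3 genes per list and direction; Rps3a1, Rpl7, Rpl37a, Rps24 and Rps28, and the called members outside these were added after their values were seen, as was the lower bound for Rpl39l. Alternatives covered scaling, floor, filter, the intensity trend, array weights, the Gapdh ratio, array number sets, the groups fitted and each array left out.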

Additional observations from a re-analysis of the deposited data

Results flagged for a closer look

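Of 76 checks for an array standing apart from the rest of its group, 6 passed Dixon's criterion at the 95% level, which chance passes in about 1 of 20 groups. Brown day 4 array 05 was the lowest of its group in the mean log2 signal of the members (9.77, the next being 10), in Rpl8 (12.5) and in Rplp0 (13.2). Brown day 7 array 22 was the highest of its group for Rps18 (13.0). White day 7 array 43 was the highest of its group for Rpsa (11.1), and white day 4 array 41 for Rpl7l1 (7.18). The causes were not tested.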

How the results depend on the processing

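No called member changed direction under any alternative run. In brown cells the count of members lower at day 7 was 8 of 36 in the report, beside 6.05% of all probe sets. It was 13 of the 28 members tested with a stricter filter (60th percentile), beside 9.41%. It was 16 of 36 with array weights, beside 10%, and 16 of 36 with array number sets as a block, beside 9.32%. It was 6 of 36 with median scaling, beside 6.34%, and 7 of 36 without the intensity trend, beside 5.48%. With each array left out it was 5 to 13. In white cells the count of 14 became 0 with the Gapdh ratio as covariate, beside 0.298% of all probe sets lower, and 11 to 16 with each array left out. It was 10 with median scaling, beside 10.7%, and 11 when only the groups compared were fitted, beside 8.72%. At day 4 the 5 members higher in brown cells became 2 with the Gapdh covariate, beside 10.2% of all probe sets. They became 2 when only the groups compared were fitted, beside 7.88%, and 12 without white day 4 arrays 45 and 51, beside 12.3%. With each array left out they numbered 2 to 8. Members lower in brown cells went from 0 to 1 (Rps29) with array weights, beside 14.8%, and without arrays 45 and 51, beside 15.9%. With each array left out that count was 0 to 1. At day 7 the 8 higher members became 1 with the Gapdh covariate, beside 1.73% of all probe sets, and 6 to 8 with each array left out. The 0 lower ones became 2 (Rpl13a and an Rps28 probe set) with array weights, beside 17.5% of all. With each array left out they numbered 0 to 1. The Gapdh covariate took white calls over all probe sets from 1595 to 37. The causes were not tested. Median member differences moved by less than 1 SD of arrays (0.185) under each alternative, but the medians between cell types and of the difference of changes are smaller than that SD, so this says nothing of their stability. Under quantile normalization the day 4 median went from 0.144 to 0.056, and the day 7 median less that of all probe sets from 0.048 to -0.0084. Depth does not apply to arrays, but 13 dim probe sets leave 8 genes with no tested probe set. No array number recurs in a second group, so arrays were not paired by number. The block of array number sets, which the labels do not give, is described above.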
